A study of Mus musculus with 4 samples.

Results

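The nuclear genes for subunits of the 5 oxidative phosphorylation (OXPHOS) complexes were examined in the facial processes of the mouse embryo. Members were protein-coding nuclear genes with a symbol made of Nduf, one of the letters a, b, c, s or v and a number, the 4 succinate dehydrogenase subunits Sdha to Sdhd, and genes whose symbol starts with Uqcr, Cox followed by 4 to 8, or Atp5. The assembly factors (the Ndufaf and Sdhaf genes) were left out. This gave 84 of 43346 gene entries, namely 37 for complex I, 4 for complex II, 8 for complex III, 18 for complex IV and 17 for complex V. RNA was taken at e11.5 (embryonic day) from the 4 outgrowths that form the face of wild-type embryos: the lateral nasal process (LNP), the medial nasal process (MNP), the maxillary process (Mx) and the mandibular process (Md). Each gave 1 RNA-seq library of mixed cell types. The title and tissue label of the MNP library name the medial nasal process, whereas the bracketed abbreviation in its source name reads LNP. How many embryos were used, and their strain, is not stated in the sources. Without replicate libraries no difference could be tested against the spread between embryos, and every interval below covers counting error only.

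Oxidative phosphorylation takes place in the inner mitochondrial membrane. Complexes I and II pass electrons from NADH and succinate to ubiquinone, complex III passes them on to cytochrome c and complex IV to oxygen, and complex V uses the proton gradient that results to make ATP. The mitochondrial genome encodes a few core subunits of complexes I, III, IV and V, while all other subunits, and complex II as a whole, come from nuclear genes. Several complex IV subunits exist as alternative forms, of which some are known from adult heart and skeletal muscle.

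The libraries held 13216161 to 16163874 counts. A gene was compared between libraries in CPM, its counts scaled to the library total with a factor from the trimmed mean of M values. Genes were compared with each other in the deposited TPM, which correct for transcript length. As a check of the labels, Hand2, a gene of the distal first arch, had 103 CPM in Md and at most 1.32 CPM elsewhere. In bulk tissue, fewer cells of a type and less RNA per cell cannot be told apart.

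Some members share sequence with each other or with other loci, which bears on how their reads were counted. The sequences below are written 5′ to 3′. Atp5g1, Atp5g2 and Atp5g3 encode different precursors of subunit c, the rotor ring of ATP synthase. The first 90 bases of the final 228 coding bases of each gene are given (GENCODE M21), with capitals at positions where the 3 genes are not all alike.
Atp5g1: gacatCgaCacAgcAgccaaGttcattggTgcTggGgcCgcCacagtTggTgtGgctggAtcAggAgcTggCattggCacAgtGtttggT
Atp5g2: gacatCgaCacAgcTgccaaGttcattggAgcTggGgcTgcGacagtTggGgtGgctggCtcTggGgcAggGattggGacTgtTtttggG
Atp5g3: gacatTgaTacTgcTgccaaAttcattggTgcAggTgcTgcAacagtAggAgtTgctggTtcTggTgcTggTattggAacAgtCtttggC
Over all 228 bases, Atp5g1 was identical to Atp5g2 at 194 positions and to Atp5g3 at 182, and Atp5g2 to Atp5g3 at 179. Of the 34 bases that differ between Atp5g1 and Atp5g2, 32 lie at the third position of a codon. No stretch of 50 bases, the read length, is shared between any 2 of them in this part, so their reads can be told apart there.

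Atp5g1 and Atp5g2 do share stretches with pseudogenes. Gm10175 holds 36.7% of the 50-base stretches of Atp5g2, and Gm10039 holds 6.86% of those of Atp5g1. Atp5l, which encodes subunit g of ATP synthase, also shares sequence with a pseudogene. It lies on chromosome 9 from 44912557 to 44920742 on the minus strand of GRCm38. The processed pseudogene Gm10221, on chromosome 5 from 24581554 to 24581862, is identical over all of its 309 bases to the 312 coding bases of Atp5l, and the first 60 bases of the shared run are shown.
Atp5l and Gm10221: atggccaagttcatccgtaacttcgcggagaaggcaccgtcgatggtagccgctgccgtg
A read from this run fits both loci, and the estimated counts divide such reads between them.

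Promoter sequences (RefSeq, GRCm38.p6, 250 bases before to 50 after the start) were matched for 67 of the 84 members. The binding motif of NRF-1, a factor known to act on many respiratory chain genes, occurred on either strand in 10 of the 67 (14.9%) and in 2.31% of all 27025 promoters. The motif CCGGAAG of GABPA (NRF-2) occurred in 16 (23.9%, against 9.08%), GCCATNTT of YY1 in 16 (23.9%, against 6.22%) and TCAAGGTCA of the oestrogen-related receptor in 2 (2.99%, against 0.407%). At least 1 of the 4 was present in 38 of 67 member promoters (56.7%) and in 16.5% of all promoters. The 27025 promoters were not limited to genes detected in these libraries, and promoters of other expressed genes were not compared. Windows of 80 bases are shown for 4 members with values below, with the motif letters in capitals (CCGGAAG reads CTTCCGG on the opposite strand).
Sdhd, chr9:50603869-50603948, minus strand: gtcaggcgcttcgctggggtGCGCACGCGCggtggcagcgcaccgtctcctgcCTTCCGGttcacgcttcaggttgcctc
Cox6a1, chr5:115349061-115349140, minus strand: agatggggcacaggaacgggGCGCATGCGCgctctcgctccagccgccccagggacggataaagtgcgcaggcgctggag
Uqcrh, chr4:116075071-116075150, minus strand: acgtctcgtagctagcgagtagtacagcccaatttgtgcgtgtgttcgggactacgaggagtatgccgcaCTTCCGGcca
Atp5l, chr9:44920895-44920974, minus strand: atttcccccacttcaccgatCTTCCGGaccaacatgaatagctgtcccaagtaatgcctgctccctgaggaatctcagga
The capitals mark an NRF-1 and a GABPA motif in Sdhd, an NRF-1 motif in Cox6a1 and a GABPA motif in Uqcrh and Atp5l. A match is a description of the letters and does not show binding.

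Of the 84 members, 75 reached 5 CPM in at least 1 library, and these were compared between processes. For each process, the difference is log2 (CPM + 0.5) minus the mean of the other 3 libraries. In all 5 complexes the median was lowest in MNP and above 0 in LNP and Mx. The median difference over the 75 members was 0.13 in LNP, -0.24 in MNP, 0.18 in Mx and -0.06 in Md. Over all 12406 genes compared the medians were 0.02, -0.03, 0.02 and -0.01 in the same order of processes. The medians of the members' counting-error bounds ran from 0.03 to 0.23 in LNP, from -0.36 to -0.12 in MNP, from 0.08 to 0.27 in Mx and from -0.17 to 0.06 in Md. MNP was below the mean of the others in 75 of 75 members, whereas 71 were above it in LNP, 73 in Mx and 20 in Md. Of all 12406 genes compared, 6823 lay above the mean of the others in LNP, 5442 (43.9%) in MNP, 6632 (53.5%) in Mx and 6053 (48.8%) in Md.

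**Figure D1:**
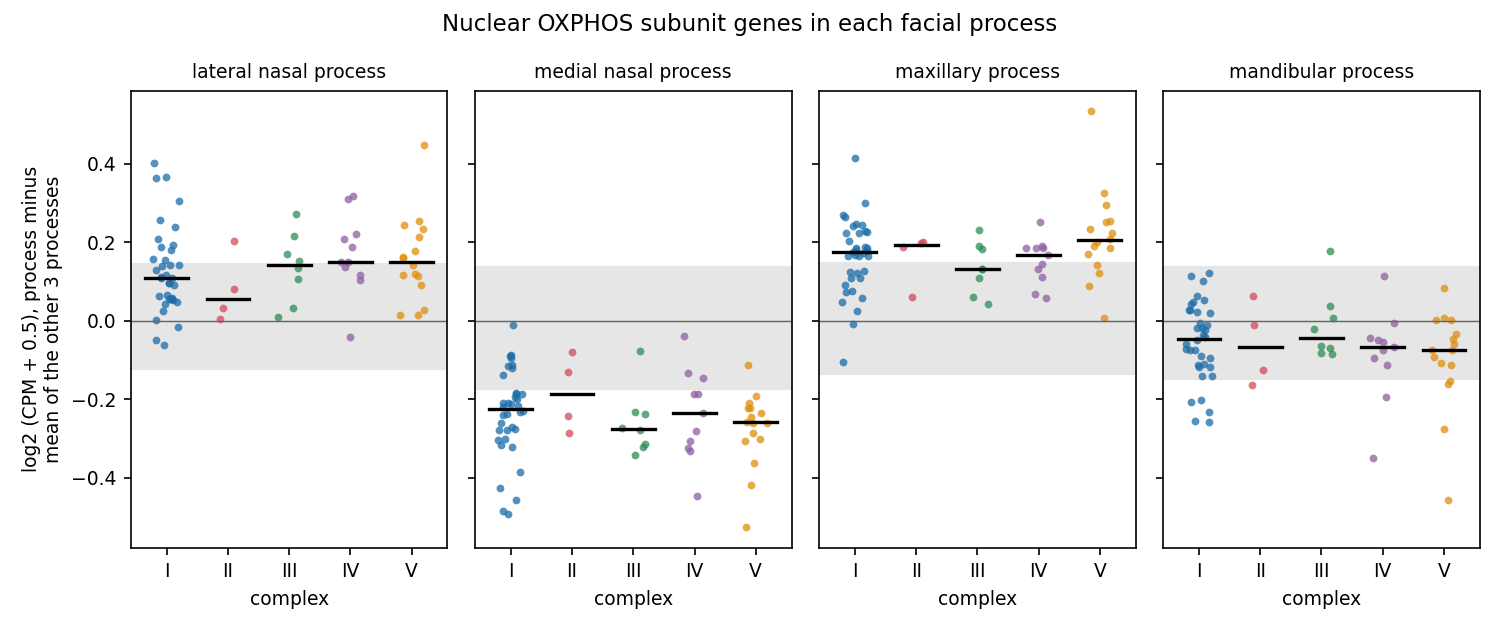
Each of the 75 members as log2 (CPM + 0.5) in one process minus the mean over the 3 remaining libraries, by complex. Points are genes, black bars complex medians, and the grey band is the interquartile range of all 12406 genes compared. All points of the MNP panel lie below 0.

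The complexes moved by like amounts. In MNP the medians were -0.23, -0.19, -0.28, -0.24 and -0.26 for complexes I, II, III, IV and V. They were 0.17, 0.19, 0.13, 0.17 and 0.20 in Mx, and 0.11, 0.06, 0.14, 0.15 and 0.15 in LNP. In Md all 5 lay between -0.07 and -0.04. The share of members' counts that came from each complex differed little between libraries. Complex V held 44.6 to 46.1%, complex I 25.8 to 26.3%, complex IV 13.5 to 14.04%, complex III 8.86 to 9.22% and complex II 5.63 to 6.06%.

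The same held for parts of a complex. The 7 core subunits of complex I, which carry the flavin and iron-sulfur clusters and the quinone site, had a median of -0.21 in MNP, beside -0.23 for the 29 accessory subunits tested. In complex V the MNP median was -0.26 for the 5 genes of the catalytic F1 head, -0.26 for the 4 of the peripheral stalk, -0.24 for the 3 genes of subunit c and -0.26 for the 4 small membrane subunits. In Md the subunit c genes stood at -0.16 and the peripheral stalk at -0.03.

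Summed over all 84 members, the level was 7171 CPM (interval 7130 to 7212) in LNP, 5805 (5764 to 5846) in MNP, 7328 (7285 to 7371) in Mx and 6410 (6368 to 6453) in Md. The members made up 0.721%, 0.594%, 0.723% and 0.631% of all counts. In CPM the intervals of the LNP and Mx sums do not overlap each other or those of the remaining libraries. The order of LNP and Mx depended on the scale. As shares of all counts their intervals overlap, at 0.717 to 0.725% in LNP and 0.719 to 0.727% in Mx. In summed TPM LNP was above Mx, with 9132 against 8819.

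A fold of 1.2 was used to count members in either direction, and each count is set beside the share of all 12406 genes compared that passed the same fold. In MNP 30 of 75 members were at least 1.2-fold lower than the mean of the others (12.6% of all genes) and 0 were higher (15.4% of all genes). In LNP 8 were higher (10.8%) and 0 lower (12.6%). In Mx 7 were higher (9.93%) and 0 lower (14.2%), and in Md 0 were higher (12.9%) and 3 lower (13.7%). The shares of members higher in LNP and Mx were thus near those of all genes, and none of the 75 members reached 1.5-fold against the mean of the others in any process. The counts depended on the scale: on total counts without the factor 16 members were lower in MNP, and in TPM 19 were higher in LNP. The share of all genes past the fold is not given for these scales, and the medians of all genes moved as well. In MNP this median was 0.01 on total counts, beside -0.03 with the factor. In LNP it was 0.06 in TPM, beside 0.02 in CPM. The ratio of a member's highest to its lowest library had a median of 1.27 and ran from 1.08 to 1.75.

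The 4 libraries can be split into 2 pairs in 3 ways, and a member was counted where both libraries of 1 pair lay above both of the other. LNP and Mx were both above MNP and Md in 64 of 75 members (29.2% of all genes) and both below in 0 (20.8%). The median of this difference was 0.23 for the members, a fold of 1.17, and 0.03 for all genes compared. The 11 members that did not follow it were Ndufb2, Ndufb3, Ndufb4, Ndufb9, Ndufb11, Ndufs5, Ndufs7, Sdhb, Uqcrb, Cox7c and Atp5j. The nasal libraries were both above the first arch libraries in 0 members (15% of all genes) and both below in 7 (15.7%). LNP and Md were both above MNP and Mx in 4 (10.8%) and both below in 0 (8.37%). Between single libraries, LNP was above MNP in 75 of 75 members, Mx above MNP in 74 and Md above MNP in 66, while LNP was above Mx in 29. The shares over all genes were 55.6%, 55.4%, 55.8% and 48.7% for these pairs in the same order. The lowest of the 4 libraries was MNP for 65 members, Md for 9, Mx for 1 and LNP for 0, and the highest was Mx for 43, LNP for 27, Md for 5 and MNP for 0. Over all 12406 genes MNP was lowest for 4103, Md for 3083, LNP for 2643 and Mx for 2577. The highest library was not counted over all genes, so the members' counts for it have no such comparison.

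**Figure D2:**
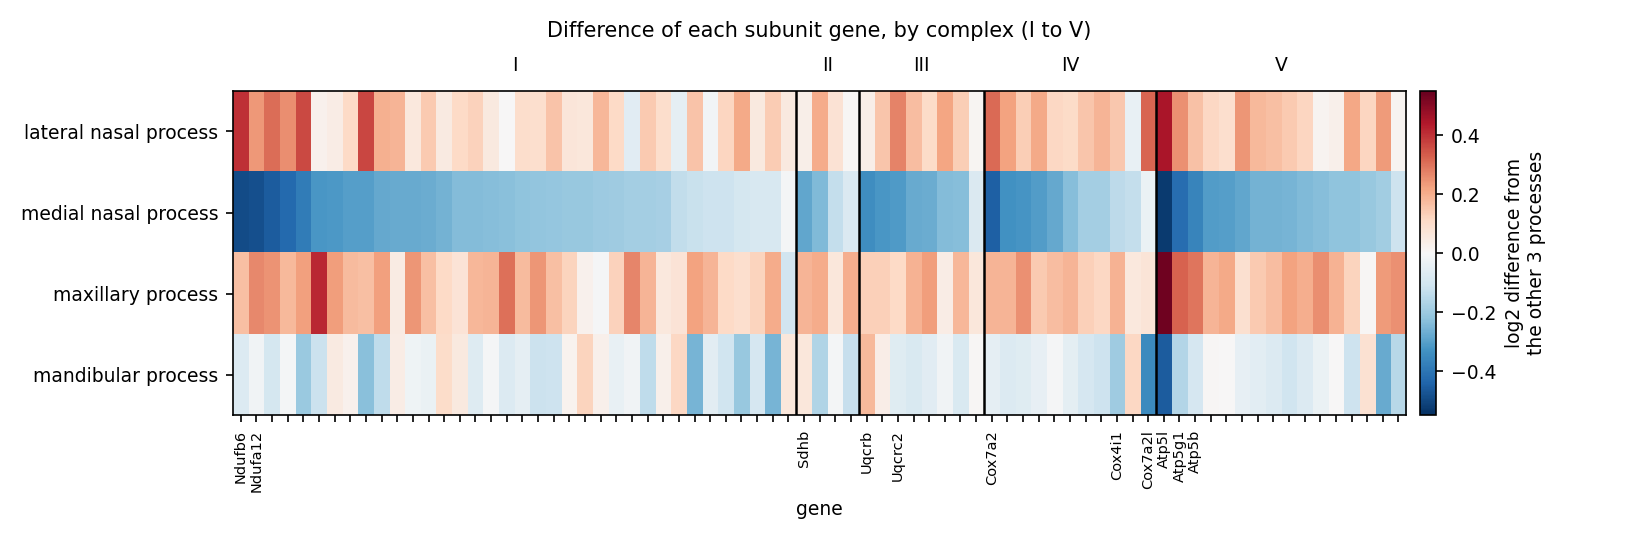
Colour shows the difference in log2 (CPM + 0.5) of each of the 75 members (columns, grouped by complex I to V and ordered by the MNP value, with a name under some of the genes described in the text) in each process against the mean of the other 3 (rows). Atp5l, shown without the counts of its copies, is the strongest column, from -0.53 in MNP to 0.53 in Mx.

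Complex I takes electrons from NADH. Its most abundant nuclear transcripts per length were Ndufa4, now known as a subunit of complex IV, with 203 to 249 TPM, Ndufb8 with 126 to 181 TPM and Ndufa12 with 98.5 to 146 TPM, each lowest in MNP. Ndufa4 was grouped by its symbol, so the values given for complex I include it and those for complex IV do not. The complex I gene with the largest difference was Ndufb6, an accessory subunit of the membrane arm. Its level was 28.2 CPM in LNP, 17.5 CPM in MNP, 24.9 CPM in Mx and 21.9 CPM in Md. LNP was highest and 1.61-fold above MNP (interval 1.37 to 1.89). Ndufa12, an accessory subunit of the matrix arm, had 68.4, 46.8, 69.4 and 59.8 CPM in the same order, and Mx lay 1.48-fold above MNP (1.34 to 1.64). Its pseudogene Gm15920 holds 26.2% of its 50-base stretches, and with the copies' counts added the levels were 78.2, 54.0, 81.9 and 71.0 CPM. Ndufc2 and Ndufb8 likewise had their lowest value in MNP, 29.8 and 62.6 CPM, and lay 1.496-fold (1.32 to 1.69) and 1.43-fold (1.31 to 1.56) above it in LNP. Ndufb11, on the X chromosome, was the member that differed least from the other 3 in MNP (-0.01) and the one member lowest in Mx.

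Complex II, the succinate dehydrogenase, links the tricarboxylic acid cycle to the respiratory chain. Sdhb, the iron-sulfur subunit, had 105, 88.8, 114 and 107 CPM in LNP, MNP, Mx and Md. MNP alone was low, with Mx 1.28-fold above it (1.19 to 1.38). Sdhd, a membrane anchor, split 2 against 2, with 74.9 and 74.8 CPM in LNP and Mx, against 59.3 and 61.8 CPM in MNP and Md. The catalytic flavoprotein gene Sdha ranged from 154 to 172 CPM, and the anchor gene Sdhc from 48.5 to 57.4 CPM.

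Complex III carries electrons to cytochrome c. Uqcrh, Uqcrb and Uqcr11, which encode small subunits, were the most abundant per length, with 170 to 212, 114 to 148 and 110 to 141 TPM. Uqcrb had 60.5 CPM in LNP, 49.7 in MNP, 63.8 in Mx and 65.3 in Md, so that Md was highest and 1.31-fold above MNP (1.19 to 1.45). The core protein gene Uqcrc2 had 160, 118, 147 and 134 CPM in that order, and lay 1.36-fold higher in LNP than in MNP (1.27 to 1.45). Uqcrc1, the other core protein gene, had 168, 133, 170 and 147 CPM, and Uqcrq 25.97, 20.2, 25.7 and 24.4 CPM. Uqcrfs1, the Rieske iron-sulfur protein gene, ranged from 55.4 to 59.5 CPM, and the interval of its highest over its lowest library (0.975 to 1.19) includes 1.

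Complex IV, the cytochrome c oxidase, was led by Cox6b1 (226 to 274 TPM), Cox4i1 (215 to 261 TPM) and Cox7c (204 to 231 TPM). Cox7a2 had 61.2 CPM in LNP, 41.1 in MNP, 57.3 in Mx and 50.6 in Md, and was 1.49-fold higher in LNP than in MNP (1.34 to 1.65). Cox8a and Cox6a1 were also lowest in MNP, at 60.7 and 55.4 CPM, against 81.0 CPM of Cox8a in LNP and 74.95 CPM of Cox6a1 in Mx. Cox7a2l, which encodes a factor that joins complexes III and IV into supercomplexes, had another order. It stood at 83.8, 69.6, 73.6 and 59.1 CPM in LNP, MNP, Mx and Md, lowest in Md, with LNP 1.42-fold above it (1.30 to 1.55). With the counts of its copies, chiefly Gm6969, these became 113, 93.1, 101 and 78.3 CPM in the same order. Cox4i1 was also lowest in Md, at 137 CPM.

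Complex V, the ATP synthase, held the most abundant member. Atp5b, the catalytic beta subunit gene, had 708 TPM in LNP, 498 in MNP, 731 in Mx and 605 in Md. Its counts of 9435 to 14905 made it one of the most precise values, and Mx was 1.41-fold above MNP (1.37 to 1.44). The alpha subunit gene Atp5a1 followed with 262 to 329 TPM and Atp5k, a small membrane subunit gene, with 226 to 277 TPM. Of the 3 genes of subunit c, Atp5g2 gave 40.9 to 44.7% of their summed TPM, Atp5g3 30.5 to 33.5% and Atp5g1 23.1 to 26.3%. Atp5g1 had 80.7, 56.8, 83.8 and 64.95 CPM in LNP, MNP, Mx and Md, and Mx was 1.48-fold above MNP (1.35 to 1.62). Atp5g2 was lowest in Md, at 114 CPM, against 149 CPM in LNP. With the counts of its copies, chiefly Gm10175, it had 155, 122, 159 and 115 CPM in LNP, MNP, Mx and Md. On this count Mx was highest and Md still lowest. The peripheral stalk gene Atp5h ranged from 99.6 to 129 CPM.

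Without the counts of its copies, Atp5l showed the largest difference among the 75 members at 5 CPM. It had 60.3 and 63.1 CPM in LNP and Mx, against 36.1 and 37.5 CPM in MNP and Md. LNP was 1.67-fold above MNP (1.496 to 1.86) and Mx 1.68-fold above Md (1.51 to 1.88). The identical copy Gm10221 went the other way, with 24.2 and 24.1 CPM in LNP and Mx, against 28.2 and 33.2 CPM in MNP and Md. When the counts of its annotated copies were added to Atp5l, the levels were 84.7 and 87.6 CPM against 64.5 and 71.0 CPM, and the folds 1.31 (1.21 to 1.43) and 1.23 (1.13 to 1.34). The direction held with the copies, with a difference of 0.26 in Mx, beside a complex V median of 0.20. The rank of Atp5l did not hold, since Ndufb6, to which no copies were added, differed by -0.49 in MNP.

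**Figure D3:**
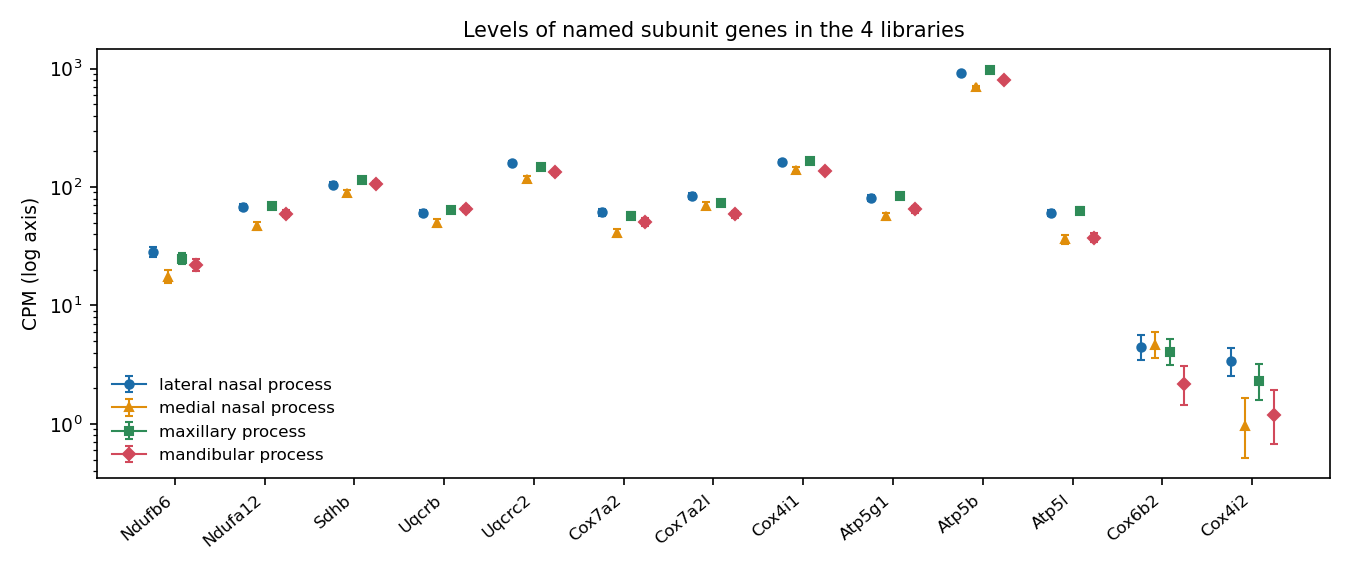
Level in CPM (log axis) of 13 named members in the 4 libraries; bars are exact 95% Poisson intervals for counting error. Cox6b2 and Cox4i2 lie under 5 CPM, all others between 17.5 and 982 CPM.

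The alternative forms of complex IV subunits were low or not detected. Cox4i2, a form known from lung and from oxygen-sensing cells, had 55 counts in LNP, 13 in MNP, 35 in Mx and 16 in Md, or 3.39, 0.961, 2.31 and 1.19 CPM. It had the widest range among members with more than 3 counts in every library, 3.52-fold between LNP and MNP (1.90 to 7.03), and split the libraries into the same pairs as the abundant members. It made up 0.651 to 1.95% of the TPM of Cox4i1 and Cox4i2 together. Cox6b2, known from testis, had 72, 63, 62 and 29 counts in that order. Here Md was low and MNP was not, and LNP was 2.06-fold above Md (1.32 to 3.29).

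The forms known from heart and skeletal muscle had 5 counts or fewer. Cox6a2 had 1 count in LNP and 0 in the others, Cox7a1 had 1 to 5 counts, and Cox8b, together with Cox7b2 and Cox8c, forms known from testis, had 0 counts in all 4 libraries. A count of 0 allows up to 3 counts, or 0.186 to 0.227 CPM before the factor. Skeletal muscle genes were detected in the Md library, with 21.5 CPM of Myog and 546 CPM of Ttn, whereas Ckm, the muscle creatine kinase gene, had 1 count there. Ndufa4l2, a paralogue of Ndufa4 known as a hypoxia target, had 11, 3, 1 and 3 counts in LNP, MNP, Mx and Md. The remaining member under 5 CPM was Atp5s, a coupling factor, with 55 to 76 counts.

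Other mitochondrial genes of nuclear origin were set beside the members, each with its median in MNP. Of all genes compared, 12.6% were lower and 15.4% higher there by 1.2-fold. The 77 mitochondrial ribosomal protein genes stood at -0.19, with 20 lower and 0 higher by 1.2-fold. The 19 tested genes of carriers and protein import stood at -0.23 (8 lower, 0 higher), and the mitochondrial chaperone genes Hspa9 and Hspd1 had 268 and 328 CPM there, against 351 to 358 and 422 to 440 CPM in the other libraries. The 48 tested assembly factors stood at -0.15 (9 lower, 1 higher), with Ndufaf4 at 20.5 CPM in MNP, against 26.2 to 31.5 CPM. The 14 electron carriers and ubiquinone genes stood at -0.18, with 2 lower and 1 higher, near the share of all genes. Cycs, cytochrome c, had 59.1 CPM in MNP, against 81.9 to 86.5 CPM in the others. The 18 genes of the tricarboxylic acid cycle stood at -0.17, all 18 below 0, with 2 lower by 1.2-fold, again near the share of all genes, and 0 higher. The subunit genes that the symbol rule misses, Cyc1 and Ndufab1, had differences of -0.33 and -0.10 in MNP.

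Regulators of mitochondrial genes had a smaller median difference in MNP than the members, -0.08 over 17 tested genes. Of the 17, 4 lay above the mean of the others there. By 1.2-fold, 1 was lower (12.6% of all genes) and 0 were higher (15.4%). The lower gene was Esrra, an oestrogen-related receptor gene, at -0.34. Nrf1 ranged from 89.9 to 101 CPM, Gabpa from 100.1 to 114 CPM and Tfam, the mitochondrial transcription factor gene, from 53.7 to 62.7 CPM. The coactivator gene Ppargc1a stayed under 5 CPM, with 2.88 CPM in MNP. Pprc1, a related coactivator gene, was lowest in LNP (47.8 CPM) and highest in Md (79.2 CPM), an order unlike that of the members.

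The same direction was present in cytosolic ribosomal protein genes, with medians of 0.13 in LNP, -0.18 in MNP, 0.17 in Mx and -0.10 in Md over 80 genes compared. Transcript length moved with it. The members are short, with a median effective length of 543 bases beside 2562 bases for the other 11439 protein-coding genes compared. The difference of LNP and Mx minus MNP and Md had a median of 0.22 in the 209 other protein-coding genes under 500 bases, 0.20 between 500 and 1000, 0.13 between 1000 and 2000, 0.02 between 2000 and 4000 and -0.10 in genes of 4000 bases and over. The members in the first 4 classes had medians of 0.23, 0.22, 0.24 and 0.25, over 32, 24, 16 and 3 genes. The pairing was followed by 84.4% of the members and 69.4% of the other genes under 500 bases, by 75% and 62.7% between 500 and 1000, and by all 16 members and 43.8% of the other genes between 1000 and 2000. The part of transcript length in the members' difference was not tested.

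**Figure D4:**
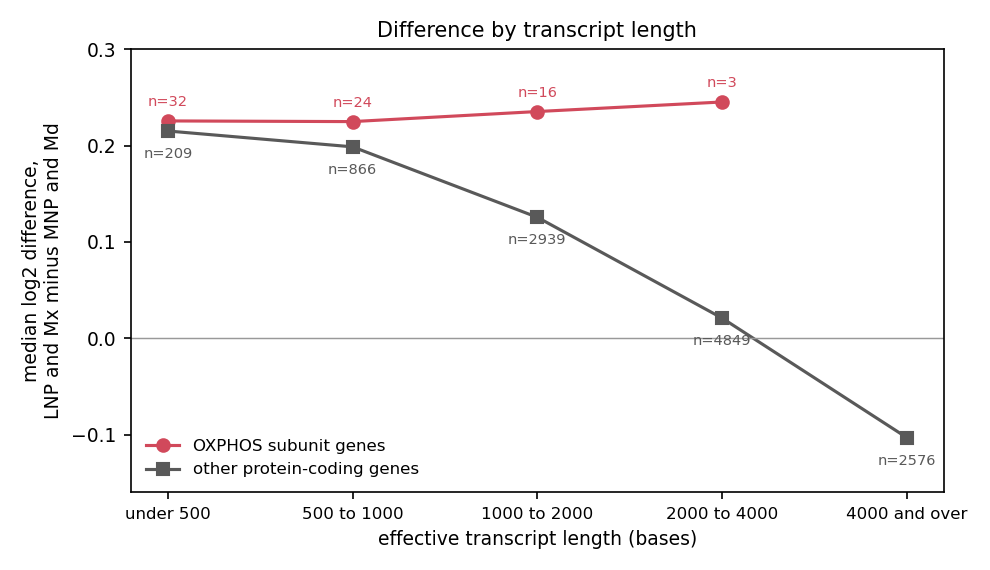
Median log2 difference of LNP and Mx minus MNP and Md, by effective transcript length in bases, for members and for other protein-coding genes; n gives the genes in each class. The members stay between 0.22 and 0.25 while the other genes fall from 0.22 to -0.10.

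Cell type markers also differed between the libraries. The 6 erythroid markers, all detected in every library, were above the mean of the others in 6 of 6 genes in LNP and Mx and in 0 of 6 in MNP and Md, with summed levels of 3495, 2242, 3225 and 2507 CPM in LNP, MNP, Mx and Md. The 3 neural progenitor markers were highest in MNP (3 of 3, summed 38.4 CPM there and 0.520 to 16.7 CPM elsewhere, with Otx2 at 0 counts in Md), as were the 5 neuron markers in sum (282 CPM, against 48.7 to 168 CPM). The 9 skeletal muscle markers summed to 724 CPM in Md, 246 in Mx, 35.3 in LNP and 18.3 in MNP, with Ckm at 0 in MNP and Mx. Of the 5 endothelium and pericyte markers compared, 0 were above the mean of the others in LNP and Mx and 4 in MNP and Md, with sums over all 6 of 264, 322, 276 and 296 CPM in LNP, MNP, Mx and Md. The 3 lens and pigment markers summed to 26.9, 1.03, 8.96 and 1.04 CPM in that order, with Cryaa at 0 in MNP and Md. The part of these cells in the members' difference was not tested.

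The members were then set against mitochondrial genes, first against genes of complexes I and III. The genes mt-Nd1 and mt-Nd6 of complex I and mt-Cytb of complex III share fewer than 20 stretches of 50 bases with any other annotated transcript. Here Md was highest, unlike in the nuclear genes. mt-Nd1 had 996, 841, 956 and 1155 CPM in LNP, MNP, Mx and Md. mt-Cytb had 702, 718, 711 and 997 CPM in that order, with Md 1.39 to 1.42-fold above each of the others. mt-Nd6, the one protein gene on the other strand, had 42.4, 51.4, 36.4 and 67.8 CPM. The differences of these genes in Md were 0.32, 0.49 and 0.65 for mt-Nd1, mt-Cytb and mt-Nd6.

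The ratio of the members' summed counts to those of the 3 mitochondrial genes needs no scaling between libraries. It was 4.12 (4.07 to 4.17) in LNP, 3.61 (3.55 to 3.66) in MNP, 4.30 (4.24 to 4.36) in Mx and 2.89 (2.85 to 2.93) in Md. On the log2 scale the Md ratio differed from the mean of the others by -0.47 (-0.49 to -0.45), and MNP by -0.04 (-0.07 to -0.02). All 5 complexes had their lowest ratio in Md, with differences of -0.46, -0.43, -0.43, -0.49 and -0.48 for complexes I to V, and their highest in Mx. The 5 ratios share the same denominator and are not separate observations of it. Beside the low Md ratio, the members' own median there was -0.06 and the mitochondrial genes were higher by 0.32 to 0.65. With mt-Nd1, mt-Cytb or mt-Nd6 alone as the denominator the Md difference was -0.39, -0.56 and -0.73, and MNP 0.03, -0.12 and -0.39, so that its sign changed with the gene chosen, while MNP ranked above Md and below LNP and Mx in the ratio with each of them. Against all 13 mitochondrial protein genes with nuclear copies added, the Md difference was -0.22 and that of Mx 0.22.

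Of the other mitochondrial protein genes, mt-Atp8 alone has no annotated nuclear copy, and copies outside annotated transcripts were not searched for. For the rest, a read shared with a nuclear copy could be counted at either locus. mt-Co3 had 4686, 1081, 1217 and 2 counts in LNP, MNP, Mx and Md, and 99.9% of its 50-base stretches lie in the copy Gm28437. With the counts of all annotated copies added, mt-Co3 had 2963, 2047, 2599 and 2567 CPM. On this count 9 of the 13 genes were highest in Md, and mt-Nd3, mt-Co1, mt-Co2 and mt-Co3 in LNP. The Md differences of mt-Co1, mt-Co2 and mt-Co3 were 0.02, 0.13 and 0.03, and that of mt-Nd3 was 0.13, beside 0.35 to 0.72 for mt-Nd2, mt-Nd4, mt-Nd4l, mt-Nd5, mt-Atp6 and mt-Atp8. For complex IV the ratio of nuclear to mitochondrial counts, copies included, differed by -0.14 in Md (-0.17 to -0.11), beside -0.44 for complex I, -0.52 for complex III and -0.45 for complex V. On this count the ratio of complex III was highest in LNP, at 0.929 (0.905 to 0.954), with Mx at 0.913 (0.888 to 0.938).

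**Figure D5:**
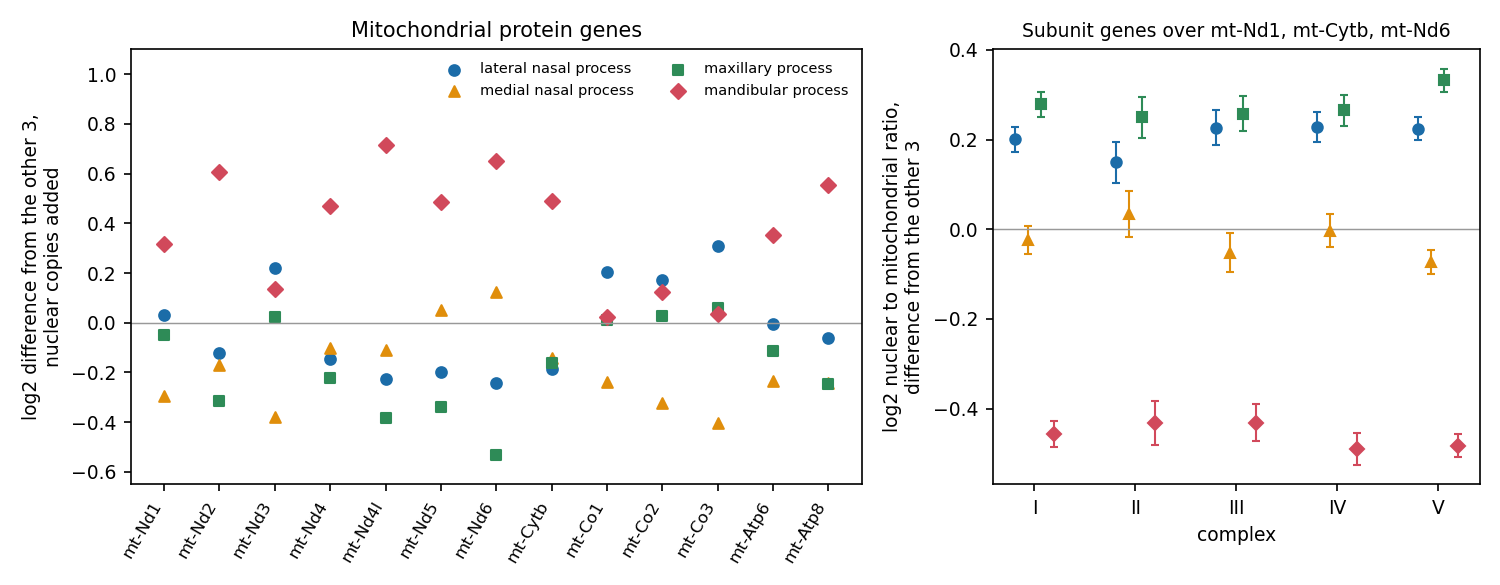
Left, log2 difference of each mitochondrial protein gene in each process against the other 3, with the counts of nuclear copies added. Right, log2 ratio of the summed nuclear counts of each complex to mt-Nd1, mt-Cytb and mt-Nd6, as the difference from the other 3 processes, with 95% counting intervals; Md lies between -0.49 and -0.43 in all 5 complexes.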

How the data were processed

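RNA from the facial processes of wild-type embryos, of both sexes, was sequenced by the authors as stranded total RNA without ribosomal RNA, in single reads of 50 bp. Per the labels and the methods, reads were aligned to mm10 with STAR and quantified with RSEM 1.4.1 on GENCODE M4. The deposited expected counts are estimates that divide reads shared between genes. They were rounded to whole numbers. Deposited TPM (corrected for length by the authors), effective lengths and posterior mean counts were also read. Entries for spike-ins and entries with a number alone were left out.

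Symbols and coordinates came from GENCODE M21 on GRCm38, which named 42462 of 43346 IDs. Factors (trimmed mean of M values, edgeR 4.0.16) used genes with 10 counts in at least 1 library. CPM refer to total counts times this factor. Precision is set by 13216161 to 16163874 counts per library, and intervals (95%: exact Poisson for levels, exact conditional binomial for folds and ratios, normal on the log scale for log2 differences) cover counting error only. Since reads carry no molecular identifiers, they are not independent molecules. Copies are annotated pseudogenes that share at least 20 stretches of 50 bases with a gene. The procedure was tested on simulated counts.

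Members and lists were chosen with earlier results of these data known. Named genes were, per complex, the 3 highest by mean TPM and the 4 with the largest difference among those at 5 CPM, together with alternative forms, members under 1 CPM, mitochondrial genes and up to 4 genes of each other list. The members outside the pairing, those at other extremes and Esrra were named after their values were seen. Alternatives were DESeq2 1.42.0 size factors, total counts, a protein-coding scale, TPM in place of CPM, a pseudocount of 0.1 or 2, a minimum of 1 CPM, of 20 CPM or none at all, folds of 1.5 and 2, removal of members whose posterior mean differs by 10% or more, added copies, and other mitochondrial denominators.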

Additional observations from a re-analysis of the deposited data

Results flagged for a closer look

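Counts were present at pseudogene entries that the comparison of members leaves out, above the limit of 3 counts that a count of 0 allows. Ndufb4c, a processed pseudogene on chromosome 15 that holds 37.0% of the 50-base stretches of Ndufb4, had 312 counts in LNP, 260 in MNP, 387 in Mx and 348 in Md, more than Ndufb4 itself with 235, 169, 215 and 201. Gm10221, the copy of Atp5l, had 394, 381, 366 and 447 counts in the same order. Gm6969, a copy of part of Cox7a2l on chromosome 12, had 472, 319, 418 and 259, and Gm15920, a copy of part of Ndufa12 on chromosome 5, had 160, 98, 191 and 152. Gm6969 followed the order of Cox7a2l, with LNP highest and Md lowest, whereas Gm10221 did not follow that of Atp5l.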

How the results depend on the processing

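No paired analysis was possible because each process had 1 library, and for the same reason no library could be left out. The medians of all members and of each complex kept their sign under each scale, pseudocount and minimum level tried, and the MNP median of all members ran from -0.24 to -0.19. The LNP median of complex IV was 0.27 with TPM. Counts of members past 1.2-fold moved more, and the share of all genes past the fold is not given for these settings. With total counts 16 were lower in MNP, beside 30 in the report, and 5 lower in Md. With TPM 19 were higher in LNP, 1 higher in MNP and 7 lower in Md. On the protein-coding scale 1 was higher in MNP, and with a minimum of 1 CPM 1 was higher in MNP and 5 lower in Md. With no minimum 1 was lower in LNP, 2 higher in MNP, 1 lower in Mx and 6 lower in Md. At folds of 1.5 and 2 the count was 0 in each process and direction.

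The log2 ratio of nuclear to mitochondrial counts against the mean of the other libraries was 0.12 in LNP, 0.034 in MNP (reversed), 0.24 in Mx and -0.39 in Md with mt-Nd1 alone. It was 0.33, -0.12, 0.35 and -0.56 in the same order with mt-Cytb, and 0.39, -0.39, 0.73 and -0.73 with mt-Nd6. Over all 13 mitochondrial protein genes it was 0.039 in LNP, 0.27 in Mx and -0.25 in Md. With nuclear copies added, an alternative chosen after seeing the data, it was 0.00099 in LNP, 0.0084 in MNP (reversed), 0.22 in Mx and -0.22 in Md. The cause of these shifts was not tested. No member had a posterior mean 10% or more from its expected count, so leaving out such members changed nothing. The depth of each library limits Cox4i2, Cox6b2 and the other members under 5 CPM to wide counting intervals.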

Other observations

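The uncoupling protein genes, which let protons return to the matrix without ATP synthesis, were outside the list of members. Ucp2 had 25.2 CPM in LNP, 28.8 in MNP, 24.9 in Mx and 23.9 in Md, so that MNP was highest. Ucp1, known from brown fat, had 0 or 1 count and Ucp3 0 to 3 counts. Coq8a, a gene of ubiquinone synthesis, was also highest in MNP, with 70 counts there, against 33 in Md, 48 in Mx and 54 in LNP.

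Members whose promoter holds at least 1 of the 4 motifs differed little from members with none of them in the comparison of library pairs. The median difference of LNP and Mx minus MNP and Md libraries was 0.24 in 38 members with a motif and 0.21 in 25 without. It was 0.27 in the 10 members with the NRF-1 motif and 0.22 in 53 without it.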
